A study of Mus musculus with 12 samples.

Results

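The genes described here encode sodium channels, calcium channels, potassium channels and HCN channels, the pore and partner subunits that shape the membrane voltage of neurons and glia. They were taken by symbol from the count tables. Of 55809 gene symbols listed for every library, 142 began with a sodium channel (Scn), calcium channel (Cacna, Cacnb, Cacng), potassium channel (Kcn) or Hcn prefix. The rule left out Kcna1, Kcna2 and Kcnj8 and 2 antisense symbols, and 137 remained. Of these, 120 had at least 10 counts in at least 1 of 12 libraries and are the channel genes below, 118 protein-coding genes and the non-coding RNAs Kcnq1ot1 and Kcnmb4os2. The other 17 were too low. Just inside that limit stood Cacng6, with at most 12 counts, and just outside it Kcne2, with at most 8.

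Voltage-gated sodium and calcium channels open when the membrane depolarises and let cations in. Their beta, alpha2delta and gamma subunits set how many channels reach the membrane and how these gate, and several gamma subunits, the TARPs, instead escort AMPA-type glutamate receptors. Potassium channels let potassium out and return the membrane towards rest. Among them, Kv channels repolarise the action potential, KCNQ channels carry the slow M-current, inward rectifiers (Kir) and K2P leak channels hold the resting potential, and calcium-activated channels follow firing. HCN channels carry the pacemaker current. In the hypothalamus these proteins set the firing of the neurons that control feeding, while Kir and K2P channels are also used by glia and microglia.

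RNA sequencing had been done on sorted mouse cells in 4 groups of 3 libraries. In Mc4r-Cre; Ai14 mice aged 4 weeks and given no treatment, TOM positive and TOM negative cells were sorted from the hypothalamus. Ai14 is a reporter allele that makes the red protein tdTomato (TOM) wherever Cre has been active, so TOM marks cells that use or once used the Mc4r driver. Mc4r is the gene of the melanocortin 4 receptor, a brake on eating. In 26-week-old Otp fl/fl; Ai14 mice, the paraventricular nucleus (PVH) had received an adeno-associated virus (AAV) 12 weeks before dissection. Of the mice given AAV-Cre the TOM positive cells were collected, and of those given AAV-GFP the GFP positive cells. All of these mice carried the floxed Otp alleles, Otp being a homeodomain transcription factor of hypothalamic neurons, and only AAV-Cre can delete them. The AAV-Cre and AAV-GFP cells thus differ in the virus and in the fluorescent protein they were sorted on, which cannot be told apart. The labels do not name the promoter of either virus, nor do they tell if each library is another animal. The p-values are therefore read against the scatter among these libraries alone, part of which may be technical.

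The smallest library held 13506018 counts and the largest 27827853. Mc4r itself had 63, 0 and 0 counts in TOM positive libraries 1, 2 and 3, against 0 throughout the TOM negative ones. Otp had 12, 9 and 10 counts in AAV-Cre libraries, against 91, 102 and 38 in AAV-GFP libraries. Mc4r, the gene of the Cre driver, and the floxed Otp stood in the direction of the labels, for Mc4r in library 1 alone. Neuronal marker genes were a small part of the TOM positive libraries. Their summed level was 275 to 391 CPM (counts scaled to a common library size) in TOM positive cells and 61.1 to 78.6 CPM in TOM negative cells, while oligodendrocyte markers summed to 76300 to 86500 CPM in TOM positive and 18600 to 24600 CPM in TOM negative libraries. Of 10 neuronal markers tested 3 rose in TOM positive cells, and of 8 oligodendrocyte markers 8 rose, while 9 of 9 microglial and 5 of 5 blood markers fell. In the PVH libraries neuronal markers summed to 1310 to 1580 CPM after AAV-Cre and 692 to 1400 CPM after AAV-GFP. In such pooled libraries, fewer cells of a type and less RNA per cell cannot be told apart.

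Channel RNA was 0.162% to 0.168% of all counts in TOM positive libraries, 0.138% to 0.165% in TOM negative ones, 0.177% to 0.239% after AAV-Cre and 0.150% to 0.273% after AAV-GFP. The number of channel genes seen also varied, and depends in part on the rule, which took genes with at least 10 counts in any library. Libraries 1, 2 and 3 held 73, 62 and 86 channel genes with at least 10 counts in TOM positive cells, and 74, 67 and 72 in TOM negative cells, which overlap. After AAV-Cre there were 80, 84 and 92, against 105, 108 and 108 after AAV-GFP. The AAV-Cre and AAV-GFP libraries did not overlap in this number. They did not overlap either in the gene symbols with any count, which were 14747 to 16988 after AAV-Cre and 20778 to 23902 after AAV-GFP, although the totals overlapped.

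**Figure D1:**
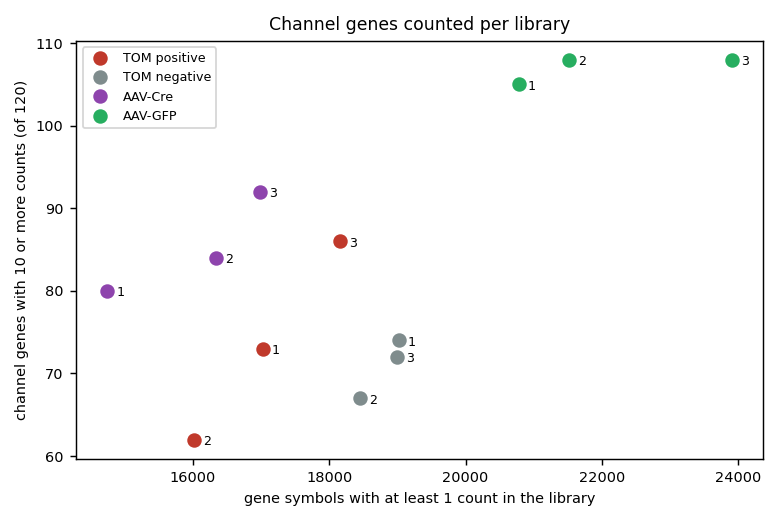
Each point is 1 library. The x axis is the number of gene symbols with at least 1 count and the y axis the number of channel genes with at least 10 counts; the digit is the replicate number. The 3 AAV-GFP libraries (green) stand at 105 to 108 channel genes on the right, apart from the 3 AAV-Cre libraries (purple) at 80 to 92.

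The loss was uneven from library to library. In AAV-Cre cells, 21 of 93 channel genes that reached 50 counts in a library (22.6%) had no count in another library of that group, against 1 of 90 (1.11%) in AAV-GFP cells. The same happened for 16 of 76 (21.1%) in TOM positive cells and 4 of 60 (6.67%) in TOM negative cells. Over all genes the shares were 13.1% in AAV-Cre, 0.242% in AAV-GFP, 13.4% in TOM positive and 2.89% in TOM negative cells. Kcnn1, a small-conductance calcium-activated channel, shows the spread with 27, 680 and 76 counts in TOM positive libraries and 121, 65 and 115 in TOM negative ones. A single library sets its mean in the TOM positive group.

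Potassium channel genes, pore and auxiliary subunits together, made up most of the channel RNA. In the PVH cells this held only with the auxiliary subunits included. Levels between genes are compared as TPM, in which counts are also divided by transcript length, computed from the counts and the exon lengths in the annotation and summed over the 120 channel genes of a library. K2P channels made up 28.7% ± 4.72 of the channel TPM in TOM positive cells and 45.8% ± 3.96 in TOM negative cells (SD, n = 3 each). They made up 14.9% ± 2.35 after AAV-Cre and 12.3% ± 2.37 after AAV-GFP. Inward rectifiers held 17.5% ± 3.63 in TOM positive cells against 9.2% ± 0.483 in TOM negative cells, and 12.7% ± 0.565 after AAV-Cre against 12.0% ± 6.99 after AAV-GFP. The potassium channel auxiliary subunits held 17.7% ± 1.95, 22.0% ± 0.489, 25.4% ± 5.6 and 29.5% ± 10.8 in TOM positive, TOM negative, AAV-Cre and AAV-GFP cells. Pore subunits of sodium and of calcium channels, each a long transcript, stayed at or under 1.12% in every group mean.

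**Figure D2:**
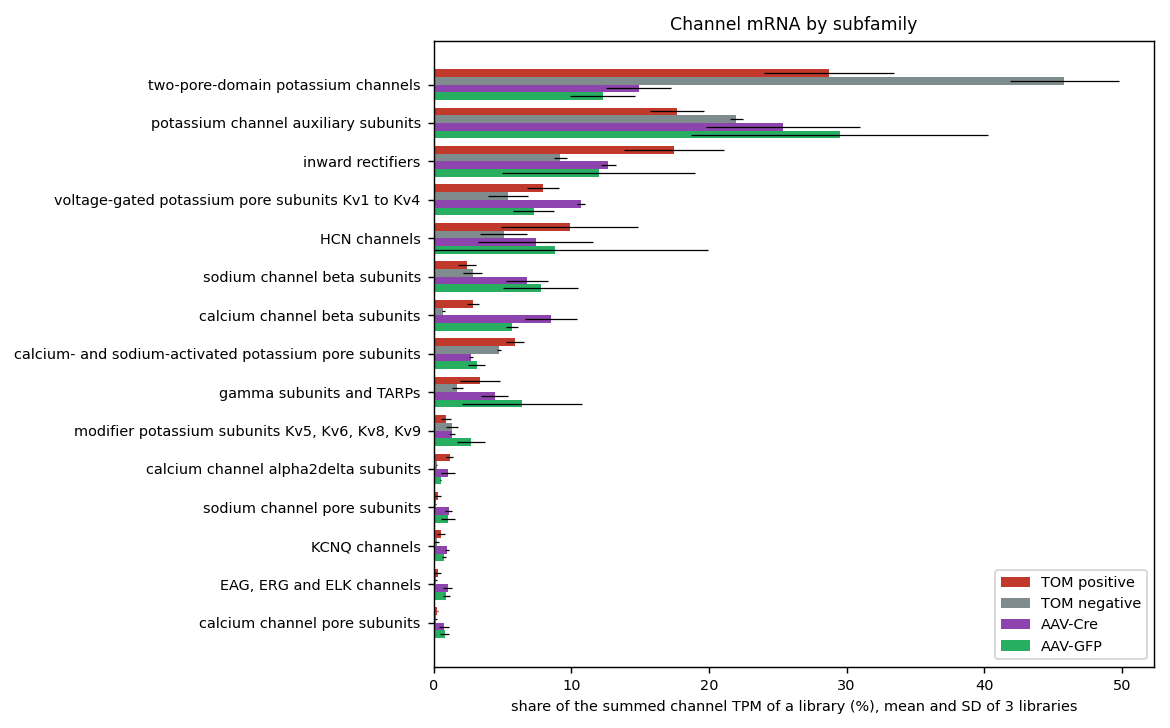
Bars give the share of the summed channel TPM of a library held by each subfamily, as the mean of 3 libraries, with lines for the SD (cut at 0). Colours are TOM positive, TOM negative, AAV-Cre and AAV-GFP. K2P channels, drawn at the top, held 28.7% in TOM positive and 45.8% in TOM negative cells, above 14.9% and 12.3% in AAV-Cre and AAV-GFP cells.

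Few genes carried these sums. Kcnk1, the K2P channel TWIK1 that is abundant in glia, led in hypothalamic cells with 302 ± 60.6 TPM in TOM positive and 326 ± 34.9 TPM in TOM negative cells. Next came Kcnip3, a calcium sensor that binds Kv4 channels and also acts as the repressor DREAM, at 149 ± 17.0 TPM in TOM positive and 169 ± 27.6 TPM in TOM negative cells. These neighbours in the order were farther apart than their spread. In TOM positive cells Hcn2 (138 ± 69.7 TPM), Kcnj10 (110 ± 55.1 TPM) and Kcnj16 (103 ± 9.27 TPM) followed and did not differ from one another beyond their spread. Hcn2 makes pacemaker channels, and Kcnj10 and Kcnj16 make the Kir channel with which astrocytes and oligodendrocytes take up potassium. The leading 5 genes held 57.2% ± 4.41 of the channel TPM in TOM positive and 63.1% ± 3.71 in TOM negative cells.

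In the PVH cells the top was flatter. Kcnip3 led after AAV-Cre with 209 ± 88.8 TPM, followed by Hcn2, Cacnb3, Kcnk13 and Kcnj16 between 102 and 111 TPM, a gap within their spread. The leading 5 held 39.5% ± 4.74 after AAV-Cre and 40.6% ± 13.0 after AAV-GFP. After AAV-GFP Hcn2 had the highest mean, 176 ± 265 TPM, and that mean rests on library 2, since the libraries stood at 5.76, 482 and 40.7 TPM. Kcnk1, first in the hypothalamic libraries, stood at 51.2 ± 18.9 TPM after AAV-Cre and 59.8 ± 2.42 TPM after AAV-GFP. The hypothalamic and PVH libraries differ in age, region and sort, and no test was run between them.

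The first comparison asked which channel genes set TOM positive cells apart from TOM negative cells. Of the 120 channel genes 75 had enough counts for edgeR's quasi-likelihood test and 45 did not. At an adjusted p threshold of 0.05 over all genes tested, 7 channel genes rose in TOM positive cells, 5 fell and 63 did not pass. Among all 15228 genes tested 23.9% passed, 10.4% higher and 13.4% lower, so the 16% called among channel genes was not above that background. The median log2 fold change was 0.21 over the tested channel genes and -0.02 over all genes. In 35 of the 75 (46.7%) the groups did not overlap, as in 46.4% of all genes tested. The calls that rose were calcium channel alpha2delta and beta subunits, a TARP, a Kv1 channel, a KCNQ channel and a non-coding RNA. Those that fell were 3 K2P channels, a Kv4 channel and its partner Kcnip3. Without scaling factors the split was 9 higher and 2 lower, and the log2 fold changes over all genes shifted by a median of 0.26.

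Calcium channel pore subunits gave no call among 5 tested by edgeR, with none at an unadjusted p under 0.05 and none called by DESeq2. The alpha2delta, beta and gamma subunits gave 4 calls, all higher, among 12 tested, against 10.4% of all genes higher. These were 1 of 4 alpha2delta, 2 of 4 beta and 1 of 4 gamma subunits. The gamma subunits tested, Cacng2, Cacng4, Cacng5 and Cacng8, are all TARPs. The difference between the pore subunits and these others was not tested. Cacna2d4, an alpha2delta subunit known from photoreceptors, had 699, 648 and 1170 counts in TOM positive libraries and 125, 169 and 135 in TOM negative ones. Each TOM positive library was far above each TOM negative one. Its mean was 32.3 ± 8.97 CPM for the TOM positive libraries, against 6.89 ± 1.12 CPM for the TOM negative ones (SD, n = 3 each). Its log2 fold change was 2.23 ± 0.37 (SE) with an edgeR adjusted p of 0.00611, and the call held with any 1 library left out. Cacnb4, a beta subunit that brings calcium channels to the membrane, had 758, 648 and 1256 counts in TOM positive libraries and 101, 4 and 34 in TOM negative ones. Its log2 fold change was 3.91 ± 0.99 (edgeR adjusted p = 0.028), and its exons share 16.0% of their bases with the opposite-strand A430018G15Rik, which had at most 40 counts. Cacnb3, another beta subunit, had 193, 544 and 603 counts in TOM positive and 29, 44 and 116 in TOM negative libraries, again without overlap (log2 fold change 2.44 ± 0.65, edgeR adjusted p = 0.0335). Cacng2, the TARP stargazin that carries AMPA receptors to synapses, had 49, 141 and 99 counts in TOM positive and 6, 0 and 4 in TOM negative libraries (log2 fold change 4.41 ± 1.32, edgeR adjusted p = 0.0486). The sizes moved with single libraries, to a log2 fold change of 5.27 for Cacnb4 and 5.18 for Cacng2 without TOM negative 1, and of 3.14 for Cacnb3 without TOM negative 3. Leaving out 1 library, TOM positive 1 or 3 or TOM negative 3, ended the call of Cacnb4 (edgeR adjusted p up to 0.093). Cacnb3 was lost without TOM positive 2 or 3 or TOM negative 1 or 2 (up to 0.12), and Cacng2 without any 1 of the 6 (up to 0.14).

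Of 8 tested Kv1 to Kv4 pore subunits 1 rose and 1 fell. Kcna6, the delayed rectifier Kv1.6, had 1555, 1920 and 2719 counts in TOM positive libraries and 167, 412 and 660 in TOM negative ones. The lowest TOM positive library stood above the highest TOM negative one. At 78.6 ± 12.6 CPM for TOM positive against 19.5 ± 10.9 CPM for TOM negative libraries, its log2 fold change was 2.01 ± 0.45 (edgeR adjusted p = 0.0176), lost without TOM positive 3 or TOM negative 2 (up to 0.076). Kcnd1, the A-type channel Kv4.1, had 171, 438 and 228 counts in TOM positive libraries and 468, 747 and 1078 in TOM negative ones, so the groups stood just apart. Its log2 fold change was -1.80 ± 0.42 (edgeR adjusted p = 0.0208), lost without TOM positive 1 or 3 or TOM negative 2 or 3 (up to 0.076). Kcnip3, the Kv4 partner that was second among all channel genes, had 2489, 4778 and 4056 counts in TOM positive and 4228, 5784 and 5540 in TOM negative libraries. Those counts overlap, and only as CPM were the groups apart, at 142 ± 18.5 for TOM positive against 249 ± 34.0 for TOM negative libraries. The log2 fold change was -0.81 ± 0.17 (edgeR adjusted p = 0.0149, and 0.059 without scaling factors), also lost without TOM positive 1 or 3 or TOM negative 2 (up to 0.072). Kcnd2, the more abundant Kv4 channel, had 1197, 1796 and 759 counts in TOM positive and 479, 745 and 979 in TOM negative libraries and did not pass (edgeR adjusted p = 0.43).

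Kcna6 lies on chromosome 6, 126685292 to 126717637, minus strand, in the GENCODE vM30 annotation of the files. It shares 2355 exon bases, 39.6% of its exon length, with the opposite-strand Gm26673. Per the headers of the PVH files, counting ignored strand and left out reads over several genes, so reads on these bases belong to neither count. Gm26673 had at most 7 counts in a library. For the hypothalamic libraries the counting settings are not stated, so reads on these bases may have been counted otherwise there. The order of Kcna6 over the 4 groups was AAV-Cre at 58.1 ± 21.7 TPM, TOM positive at 49.4 ± 8.15 TPM, AAV-GFP at 10.6 ± 3.2 TPM and TOM negative at 8.11 ± 5.08 TPM. The 2 high groups did not differ beyond their spread, nor did the 2 low ones. Each of these pairs spans the 2 experiments, which differ in age, region, genotype and sort, and no test was run between them. Kcna6 was past the threshold in both comparisons, and its 300-base promoter (250 bases before the start to 50 after, from RefSeq on GRCm38.p6, chr6:126740625-126740924, minus strand) is shown for that reason, with each CpG in capitals.
Kcna6: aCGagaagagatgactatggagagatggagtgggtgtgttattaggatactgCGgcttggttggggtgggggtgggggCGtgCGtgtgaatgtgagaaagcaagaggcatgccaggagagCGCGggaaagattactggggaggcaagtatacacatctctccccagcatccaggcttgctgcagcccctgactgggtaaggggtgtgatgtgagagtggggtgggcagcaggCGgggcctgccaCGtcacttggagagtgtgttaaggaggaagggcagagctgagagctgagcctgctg
This window has 8 CpG, more than 51.0% of 27025 mouse promoters, whose median was 7. RefSeq promoters were matched for 87 of the 120 channel genes, with a median of 11 CpG. The build of this window differs from that of the gene positions above.

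KCNQ channels gave 1 call among 3 tested. Kcnq3, a subunit of the M-current channel, had 80, 170 and 216 counts in TOM positive libraries and 0, 0 and 2 in TOM negative ones. Summed and set against library totals, TOM positive cells held 184 times the TOM negative level (95% interval 50.7 to 1530, counting error only), with an edgeR adjusted p of 0.0112 that became 0.051 without TOM negative 2. The ratio rests on the 2 counts of TOM negative 3, and without that library TOM positive cells stood at least 79.8-fold higher against a floor of 3 counts over the group. Kcnq1ot1, the long non-coding RNA that runs antisense inside Kcnq1 and silences imprinted neighbours, had 419, 593 and 452 counts in TOM positive libraries and 33, 48 and 10 in TOM negative ones. No TOM negative library came near. Its log2 fold change was 3.67 ± 0.68 (edgeR adjusted p = 0.00983), kept with any 1 library left out. Kcnq1 itself had 30 counts in TOM negative 2 and none in the other hypothalamic libraries, and the pair shares 121 exon bases.

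Of 9 K2P leak channels tested, 3 fell and none rose, beside 13.4% lower and 10.4% higher among all genes. Kcnk12, the halothane-inhibited channel THIK2, had 0, 50 and 29 counts in TOM positive libraries and 1003, 779 and 729 in TOM negative ones. It was all but missing from the TOM positive libraries, at 0.89 ± 0.854 CPM there against 40.5 ± 8.86 CPM for TOM negative libraries (log2 fold change -5.47 ± 1.07, edgeR adjusted p = 0.0116, and 0.053 without TOM negative 2). Without TOM positive 2 the log2 fold change was -6.27. Its promoter (RefSeq, GRCm38.p6, chr17:87797945-87798244, minus strand, CpG in capitals) is shown as that of the K2P gene with the largest called difference.
Kcnk12: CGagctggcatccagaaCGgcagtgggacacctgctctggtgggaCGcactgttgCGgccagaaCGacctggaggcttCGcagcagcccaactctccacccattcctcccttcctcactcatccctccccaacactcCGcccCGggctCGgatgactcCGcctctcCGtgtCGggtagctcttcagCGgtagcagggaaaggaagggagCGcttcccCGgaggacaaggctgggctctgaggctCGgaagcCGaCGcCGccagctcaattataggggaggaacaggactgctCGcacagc
It holds 20 CpG, more than 73.2% of promoters. Kcnk13, the related THIK1 that sets the resting potential of microglia, had 1061, 1348 and 2757 counts in TOM positive and 2828, 2568 and 3175 in TOM negative libraries. These counts overlap, while the CPM do not, at 64.0 ± 24.4 for TOM positive against 137 ± 11.4 for TOM negative libraries (log2 fold change -1.10 ± 0.28, edgeR adjusted p = 0.0266, and 0.062 without scaling factors). Kcnk1 had 2800, 6536 and 5324 counts in TOM positive and 6885, 5767 and 6235 in TOM negative libraries. Its counts overlapped, and at 181 ± 39.7 CPM for TOM positive against 304 ± 37.0 CPM for TOM negative libraries the log2 fold change was -0.75 ± 0.20 (edgeR adjusted p = 0.0323, and 0.11 without scaling factors). With 1 library left out, Kcnk13 passed in 1 of 6 fits, the one without TOM positive 3, and Kcnk1 likewise in the one without TOM positive 2 (edgeR adjusted p up to 0.086 and 0.089). Kcnk6, found in macrophages, had 124, 0 and 225 counts in TOM positive and 963, 1893 and 2284 in TOM negative libraries, and missed the threshold (edgeR adjusted p = 0.0519). Microglial markers summed to 351 to 846 CPM in TOM positive and 21500 to 25200 CPM in TOM negative cells, and their part in the K2P values was not tested. None of these microglial markers was at 0 in a whole group.

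**Figure D3:**
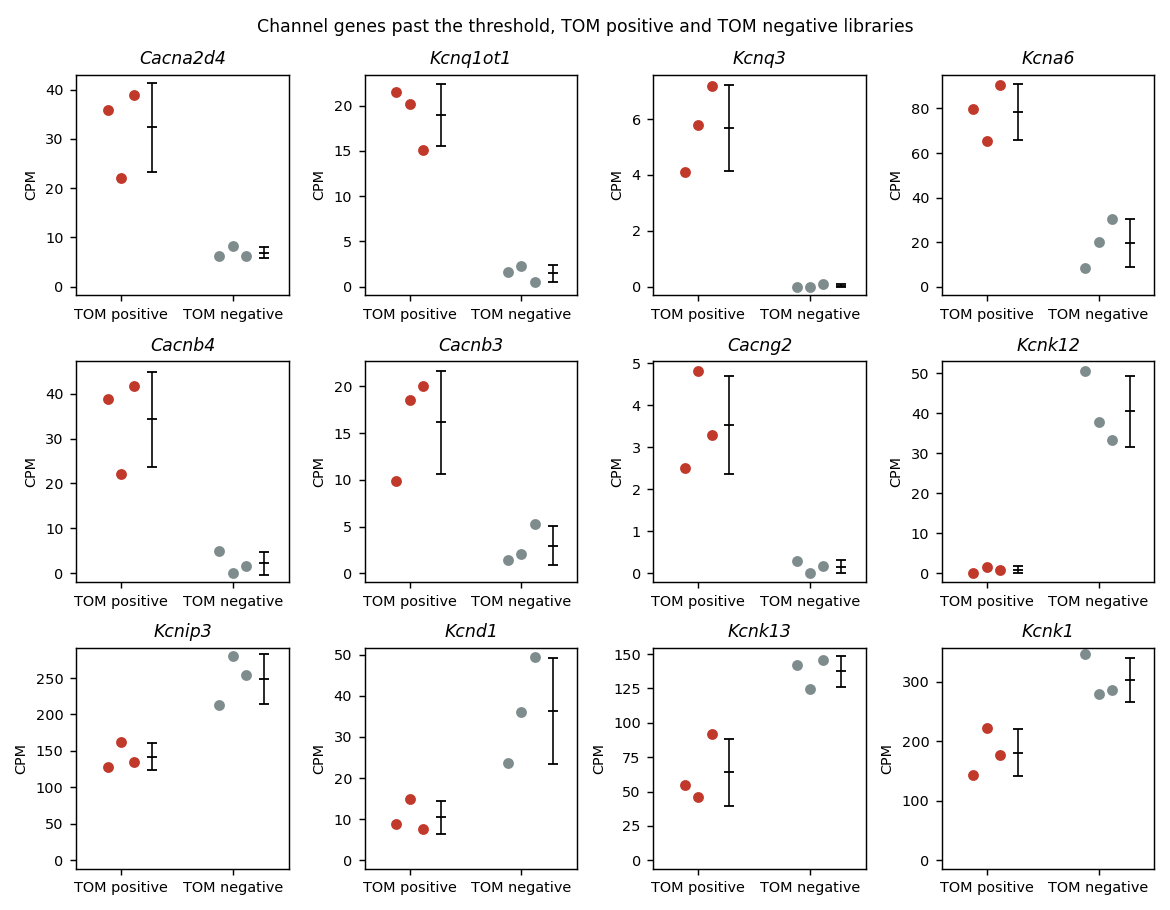
Each panel is a channel gene that passed the threshold; points are CPM of TOM positive libraries (left, red) and TOM negative libraries (right, grey), with the mean and SD beside them. Cacna2d4, Kcna6 and Kcnq3 sit higher in every TOM positive library, and Kcnk12 sits near 0 there, at 0.89 CPM against 40.5 CPM for TOM negative libraries.

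Of the 6 inward rectifiers tested by edgeR none passed, with 2 at an unadjusted p under 0.05 and 2 called by DESeq2. Kcnj10 had 2262, 7475 and 3227 counts in TOM positive and 1764, 1164 and 1640 in TOM negative libraries, without overlap but with TOM positive 2 far above the rest (log2 fold change 1.12 ± 0.37, edgeR adjusted p = 0.0651). Kcnj12, the strong rectifier Kir2.2, had 519, 429 and 452 counts in TOM positive and 63, 0 and 30 in TOM negative libraries (edgeR adjusted p = 0.083). Oligodendrocyte and oligodendrocyte precursor markers rose for 8 of 8 and 4 of 7 in TOM positive cells, and 2 of 7 astrocyte markers fell. Their part in the Kcna6 and Kcnj10 values was not tested. Kcnj16 had 2269 to 3227 counts in TOM positive and 2087 to 2446 in TOM negative libraries, which overlap.

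Sodium channel pore subunits, the generators of the action potential, were scarce in these cells. Of 8 members, 3 were tested and none passed, with none at an unadjusted p under 0.05 by edgeR and none called by DESeq2. Scn8a, found at the axon initial segment, had 105, 252 and 405 counts in TOM positive and 112, 123 and 264 in TOM negative libraries, which overlap. Scn2a had 389, 2 and 4 counts in TOM positive and 3, 55 and 40 in TOM negative libraries, so its level was set by a single library. Scn3b, a beta subunit, had 276, 46 and 233 counts in TOM positive libraries against 22, 1 and 0 in TOM negative ones (edgeR adjusted p = 0.113). Of the 2 HCN genes tested by edgeR none passed, with none at an unadjusted p under 0.05 and none called by DESeq2. Hcn2 had 2959, 1471 and 4529 counts in TOM positive and 910, 1941 and 2062 in TOM negative libraries, and the ranges overlap. Hcn3 had 0, 0 and 14 counts in TOM positive and 48, 34 and 93 in TOM negative libraries (edgeR adjusted p = 0.138).

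Genes for proteins that bind, anchor or traffic channels, and for further cation channels such as Nalcn, Trpm4 and Trpc5, were read from a list of 35, of which 30 were tested. Of these 9 rose in TOM positive cells, 1 fell and 20 did not pass, with a median log2 fold change of 1.62 against -0.02 over all genes, of which 10.4% were higher and 13.4% lower. Neuronal markers, 3 of 10 higher with a median log2 fold change of 2.78, and oligodendrocyte markers, 8 of 8 higher, stood in the same direction, and their part in these values was not tested. The scaffold Ank3, which clusters sodium channels and KCNQ channels at the axon initial segment, had 1259, 2927 and 2658 counts in TOM positive and 161, 75 and 272 in TOM negative libraries (log2 fold change 3.38 ± 0.47, edgeR adjusted p = 0.00314). Adam22, the receptor through which LGI proteins hold Kv1 channels, had 945, 628 and 1053 counts in TOM positive libraries against 22, 84 and 64 in TOM negative ones (log2 fold change 3.69 ± 0.60, edgeR adjusted p = 0.0057). Pex5l, the HCN channel partner TRIP8b, had 1534, 970 and 1246 counts in TOM positive libraries against 412, 180 and 187 in TOM negative ones (log2 fold change 2.01 ± 0.50, edgeR adjusted p = 0.0258). In each of the 3 every TOM positive library was above every TOM negative one. Lgi3, Ank2, Adam23, Cntn1, Dlg1 and Akap6 were the other genes that rose. Trpm4, a calcium-activated cation channel, fell, without a count in the TOM positive libraries and with 242, 228 and 263 in TOM negative ones (edgeR adjusted p = 0.00221).

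The second comparison set PVH cells after AAV-Cre against PVH cells after AAV-GFP, in the mice with floxed Otp. Of the 120 channel genes 108 were tested and 12 were not. One channel gene rose, 1 fell and 106 did not pass by edgeR. These calls are 1.85% of the channel genes tested, against 2.6% of all 15408 genes tested, of which 0.63% were higher and 1.97% lower. An edgeR unadjusted p under 0.05 was seen for 17 channel genes, a cut for which no share over all genes is given. The median log2 fold change was -0.22 over channel genes and -0.16 over all genes. The groups did not overlap for 21 channel genes, 9 higher and 12 lower after AAV-Cre, which is 19.4% against 28.5% of all genes tested. The spread was wide in this comparison, with a median SE of 0.94 over the channel genes, and leaving out any 1 AAV-GFP library left no channel gene called and 0, 2 and 0 genes in all.

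**Figure D4:**
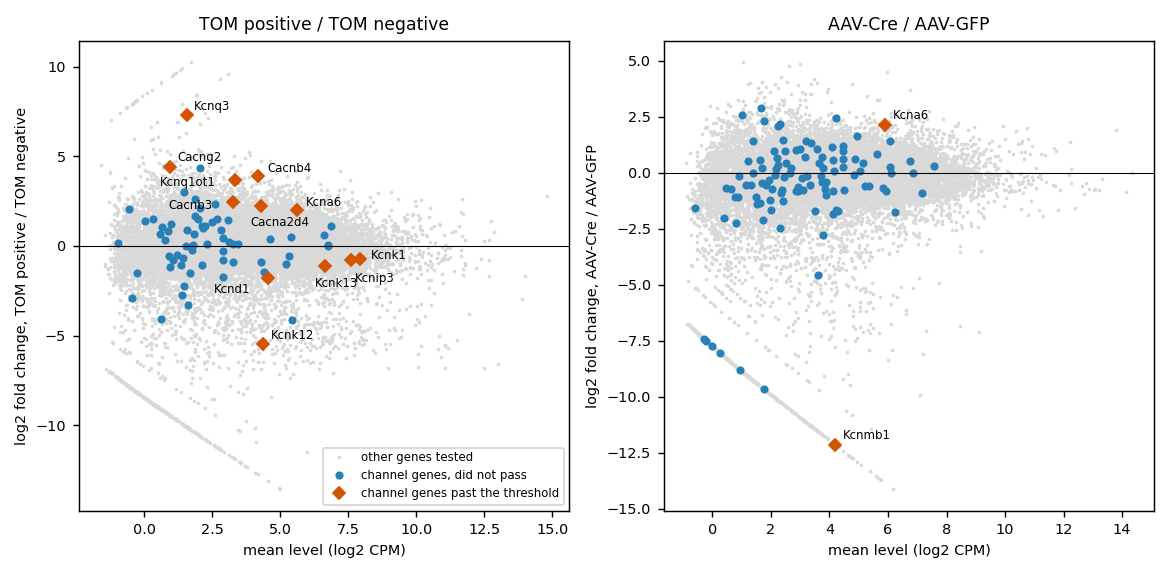
Each point is a gene, with its mean level (log2 CPM) on the x axis and its log2 fold change on the y axis, for TOM positive over TOM negative (left) and AAV-Cre over AAV-GFP (right). Blue and orange points are channel genes, orange past the threshold. Left, 7 orange genes lie above 0 and 5 below; right, Kcna6 lies above and Kcnmb1 below, on the diagonal of genes with 0 counts in 1 group, whose fitted fold is not a measured size.

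The gene that rose was again Kcna6. It had 2204, 1087 and 1202 counts in AAV-Cre libraries, against 460, 342 and 257 in AAV-GFP libraries. The lowest AAV-Cre library stood well above the highest AAV-GFP library. At 97.9 ± 34.5 CPM in AAV-Cre cells against 22.2 ± 3.61 CPM in AAV-GFP cells, its log2 fold change was 2.14 ± 0.34 (edgeR adjusted p = 0.0292). The call was lost without AAV-Cre 2 or 3 or any 1 AAV-GFP library (up to 0.13). Oligodendrocyte markers summed to 47400 to 61100 CPM after AAV-Cre and 14400 to 53400 CPM after AAV-GFP, with 1 of 8 past the threshold, and oligodendrocyte precursor markers to 1270 to 2040 CPM after AAV-Cre and 386 to 2060 CPM after AAV-GFP, with 1 of 7 higher. Their part in the Kcna6 difference was not tested.

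Kcnmb1 fell. It encodes the beta subunit that gives calcium-activated BK channels their calcium sensitivity in smooth muscle. None of the AAV-Cre libraries held a count, against 1041, 476 and 304 in AAV-GFP libraries, so it was at least 581-fold lower against a floor of 3 counts over the group (edgeR adjusted p = 0.0202, lost without any 1 AAV-GFP library, up to 0.12). With AAV-Cre library 1 left out, the floor stands over fewer counts and the bound is 376-fold. In the hypothalamic libraries it was close to absent, without a count in TOM positive libraries and with 3, 0 and 29 in TOM negative ones. The gene lies on chromosome 11, 33913013 to 33923641, plus strand (GENCODE vM30), within the span of Kcnip1 on the minus strand. Kcnip1 had 478, 232 and 621 counts in AAV-Cre libraries, against 922, 675 and 524 in AAV-GFP libraries, with overlap. The Kcnmb1 promoter (RefSeq, GRCm38.p6, chr11:33962763-33963062, plus strand) is printed as that of the gene with the deepest loss, with its CpG in capitals.
Kcnmb1: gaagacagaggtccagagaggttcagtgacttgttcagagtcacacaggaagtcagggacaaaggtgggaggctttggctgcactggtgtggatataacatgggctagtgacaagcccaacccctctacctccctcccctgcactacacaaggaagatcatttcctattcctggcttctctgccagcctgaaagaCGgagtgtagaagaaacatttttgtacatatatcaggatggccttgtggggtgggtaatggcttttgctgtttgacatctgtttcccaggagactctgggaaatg
It has 1 CpG, and 5.78% of promoters have fewer. A CArG box, the smooth muscle motif bound by serum response factor, was searched by name on both strands and found in 1.57% of all promoters and in 0 of the 87 channel promoters. The homeodomain core TAATTA, its own reverse complement, was found in 5.31% and likewise in 0 of 87. Kcnma1, the BK pore subunit, had 538, 660 and 341 counts in AAV-Cre libraries, against 468, 713 and 307 in AAV-GFP libraries, so the groups overlapped fully. Kcnmb4, the neuronal BK beta subunit, had 89, 80 and 71 counts in AAV-Cre libraries, against 186, 440 and 146 in AAV-GFP libraries, and did not pass (edgeR adjusted p = 0.211). Lrrc55, a BK gamma subunit in the list of partners, had 0, 0 and 1 counts in AAV-Cre libraries, against 53, 39 and 35 in AAV-GFP libraries (edgeR adjusted p = 0.0531).

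Kcnmb1 was 1 of 7 channel genes with no count in any AAV-Cre library and at least 10 in every AAV-GFP library. They are 7 of 99 channel genes that reached 10 counts in every AAV-GFP library, while 3.17% of all genes that reached it had none after AAV-Cre. In the reverse direction there were 0 of 61 channel genes and 0 of 11463 genes. In the hypothalamic cells no channel gene met such a rule, 0 of 57 for absence from TOM positive cells (2.3% of genes) and 0 of 52 for absence from TOM negative cells (0.214% of genes). Scn7a, the atypical sodium channel Nax of sodium-sensing glia in circumventricular organs, had 247, 57 and 34 counts after AAV-GFP and was at least 108-fold lower after AAV-Cre. That bound rests on AAV-GFP library 1, and without it Scn7a was at least 49.1-fold lower. Kcnj11, the Kir6.2 pore of the ATP-sensitive channel, had 54, 87 and 24 counts after AAV-GFP and was at least 52.7-fold lower, or 35.1-fold without AAV-GFP 2. Kcnq1 had 32, 23 and 11 counts and was at least 21.1-fold lower after AAV-Cre, and the silent subunits Kcng1 (36, 44 and 19) and Kcng4 (32, 21 and 28) stood at least 31.6-fold (Kcng1) and 25.9-fold (Kcng4) lower. Without AAV-Cre 1 the bounds were 34-fold for Kcnj11, 13.6-fold for Kcnq1, 20.4-fold for Kcng1 and 16.7-fold for Kcng4. All these bounds cover counting error only. They leave out the uneven loss, in which 22.6% of channel genes with 50 counts in an AAV-Cre library had none in another. None of the 5 genes Scn7a, Kcnj11, Kcnq1, Kcng1 and Kcng4 passed with edgeR, with adjusted p from 0.051 to 0.0573, and all 5 passed with DESeq2. Kcng4 had been counted in the hypothalamic cells, with 39, 0 and 245 counts in TOM positive and 67, 379 and 267 in TOM negative libraries.

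Markers of several other cell types were summed in the PVH libraries, where 1.97% of all genes were lower after AAV-Cre. Endothelial markers summed to 0.0623 to 21.9 CPM after AAV-Cre and 150 to 364 CPM after AAV-GFP, with 1 of 5 lower and Emcn and Cdh5 at 0 after AAV-Cre. Mural markers summed to 14.9 to 28.1 CPM after AAV-Cre and 68.3 to 84 CPM after AAV-GFP, with 1 of 5 lower and Acta2 and Myh11 at 0 after AAV-Cre. Ependymal and tanycyte markers summed to 20.1 to 27.2 CPM after AAV-Cre and 771 to 1490 CPM after AAV-GFP, with 3 of 6 lower and Rax at 0 after AAV-Cre. Blood markers summed to 0.312 to 42.7 CPM after AAV-Cre and 707 to 4690 CPM after AAV-GFP, with 2 of 5 lower and Alas2 at 0 after AAV-Cre. Microglial, oligodendrocyte and oligodendrocyte precursor markers stood the other way, with median log2 fold changes of 0.95, 1.27 and 1.23. Only 1 of 9, 1 of 8 and 1 of 7 of them were called higher, and the oligodendrocyte and precursor sums overlapped between the groups. Astrocyte markers had a median log2 fold change of -0.2, with 0 of 7 called. Their sums were 4710 to 5940 CPM after AAV-Cre and 3840 to 8030 CPM after AAV-GFP. The part of these cells, and of the lower number of genes seen in AAV-Cre libraries, in the 7 losses was not tested.

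**Figure D5:**
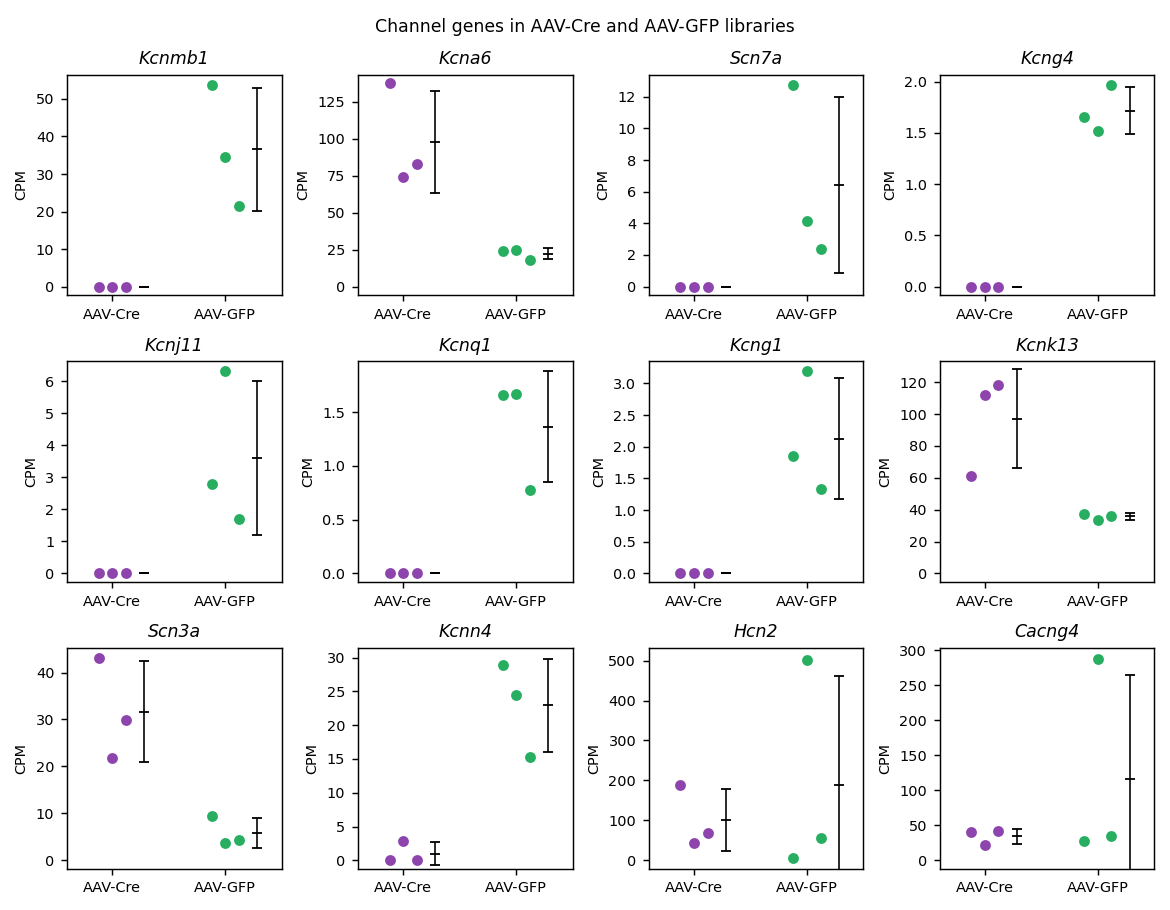
Points are CPM of the AAV-Cre libraries (left, purple) and AAV-GFP libraries (right, green), with the mean and SD beside them (cut below 0). Kcnmb1 and the 5 further genes drawn at 0 in AAV-Cre cells, Kcna6 and Kcnk13 separate the groups, while Hcn2 and Cacng4 show a single high AAV-GFP library at 6922 and 3961 counts.

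Below the threshold, some channel genes still stood apart. Kcnk13 had 985, 1653 and 1717 counts in AAV-Cre libraries, against 726, 465 and 512 in AAV-GFP libraries (log2 fold change 1.44 ± 0.32, edgeR adjusted p = 0.0556). Scn3a, a sodium channel of immature neurons, had 692, 322 and 436 counts in AAV-Cre libraries, against 184, 51 and 60 in AAV-GFP libraries (log2 fold change 2.44 ± 0.55, edgeR adjusted p = 0.0561). In both genes all AAV-Cre libraries were above all AAV-GFP libraries. Kcnn4, the intermediate-conductance calcium-activated channel of red cells and immune cells, had 0, 43 and 0 counts in AAV-Cre libraries, against 560, 338 and 218 in AAV-GFP libraries (edgeR adjusted p = 0.204). Microglial markers summed to 4590 to 8920 CPM after AAV-Cre and 2440 to 3860 CPM after AAV-GFP, with 1 of 9 higher, and their part in Kcnk13 was not tested. Of the 6 channel genes listed for glia and immune cells (Kcnj10, Kcnj16, Kcna3, Kcnn4, Kcnk13 and Kcnk6) none passed with edgeR in the PVH cells, with 2 at an unadjusted p under 0.05 and 2 called by DESeq2. In the hypothalamic cells Kcnk13 was the 1 that passed among the 5 of them tested.

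Of the channel genes called in the hypothalamic cells, Kcna6, Cacnb4 and Kcnk13 separated AAV-Cre from AAV-GFP libraries, while the rest overlapped. Among all genes tested in the PVH cells 28.5% separated, so overlap was common there for genes of any kind. Kcnk13 changed direction, with a log2 fold change of 1.44 after AAV-Cre and -1.10 in TOM positive cells. Cacnb4 had 473, 567 and 292 counts in AAV-Cre libraries, against 275, 171 and 253 in AAV-GFP libraries, higher in each AAV-Cre library but not past the threshold (edgeR adjusted p = 0.248). Cacnb3, among the leading 5 after AAV-Cre, had 2548, 1867 and 1396 counts there, against 1301, 1583 and 1221 in AAV-GFP libraries, with overlap. Kcnk12 had 214, 130 and 105 counts in AAV-Cre libraries, against 157, 604 and 98 in AAV-GFP libraries, with overlap. Kcnq3 had 3, 176 and 151 counts in AAV-Cre libraries, against 9, 14 and 53 in AAV-GFP libraries, with 1 AAV-Cre library below all AAV-GFP libraries. Kcnd1 had 0, 254 and 44 counts in AAV-Cre libraries, against 89, 112 and 66 in AAV-GFP libraries, with overlap. Cacna2d4 had 154, 174 and 2 counts in AAV-Cre libraries, against 83, 26 and 71 in AAV-GFP libraries, also with overlap. No test was run of whether a gene's difference in the hypothalamic cells and its difference in the PVH cells were unequal.

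AAV-GFP library 2 stood apart for many channel genes. It was at least 3-fold above both other AAV-GFP libraries for 14 of 90 channel genes that reached 50 counts in the group (15.6%), and for 6.51% of all such genes. In AAV-GFP libraries 1 and 3 the same held for 3 and 1 of the 90, beside 1.44% and 0.44% of all such genes. Within the AAV-Cre group it held in libraries 1, 2 and 3 for 10, 5 and 10 of 93 channel genes. These are 10.8%, 5.38% and 10.8%, beside 4.09%, 3.14% and 4.37% of all such genes. Among the 14 were Hcn2, Hcn4, Cacna1a, Cacna1h, Cacnb1, Cacng4, Kcnd2, Kcnd3, Kcng2, Kcnh3, Kcnk12 and Kcnmb4. Cacna1a, the P/Q-type calcium channel of nerve terminals, had 282, 84 and 57 counts in AAV-Cre libraries, against 30, 1012 and 148 in AAV-GFP libraries. Cacng4, a TARP, had 643, 326 and 604 counts in AAV-Cre libraries, against 522, 3961 and 498 in AAV-GFP libraries. Hcn2 had 3029, 620 and 1012 counts in AAV-Cre libraries, against 117, 6922 and 807 in AAV-GFP libraries. For Cacna1a, Cacng4 and Hcn2 the AAV-GFP mean describes no single library, and the groups overlap. Oligodendrocyte precursor markers summed to 2060 CPM in AAV-GFP library 2, against 386 and 746 CPM in AAV-GFP libraries 1 and 3. Oligodendrocyte markers summed to 14400 CPM in library 2, against 36600 and 53400 CPM, and astrocyte markers to 3840 CPM, against 8030 and 8010 CPM. The part of these cells in the values of library 2 was not tested.

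Of the 34 channel partner genes tested in the PVH cells none passed with edgeR, and the median log2 fold change was 0.31. An edgeR unadjusted p under 0.05 was seen for 7 of them, a cut without a share over all genes. DESeq2 called 4, beside 583 higher and 1300 lower of all 18922 genes. Ank3 had 3400, 1360 and 1573 counts in AAV-Cre libraries, against 970, 594 and 827 in AAV-GFP libraries, each AAV-Cre library above each AAV-GFP one (log2 fold change 1.45 ± 0.37, edgeR adjusted p = 0.0817). Lgi3, a myelin-associated member of the LGI family, had 7530, 6769 and 7630 counts in AAV-Cre libraries, against 1869, 3130 and 2622 in AAV-GFP libraries, also without overlap (log2 fold change 1.52 ± 0.35, edgeR adjusted p = 0.0583).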

How the data were processed

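RNA of 12 libraries of sorted mouse cells was counted per gene symbol, and the deposited values were whole-number counts, not normalized. Per the submitters' processing notes, the tools were FastQC for quality, Trim Galore, the aligner STAR, and featureCounts, on mm10. Per the file headers of the PVH libraries, the authors used featureCounts 2.0.1 on the GENCODE vM30 annotation, counting read pairs without strand. For the hypothalamic table, the counting settings are not stated in the sources used here. Gene positions are those of vM30, a later assembly than mm10, as the files give them; promoters are from RefSeq on GRCm38.p6, and nothing was converted. Sorting was into Trizol and the library kit was SMART-Seq mRNA LP, per the labels' protocols. No molecular identifiers are described, so intervals and lower bounds cover counting error only.

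Each comparison was fitted on its 6 libraries in R 4.3.3 with edgeR 4.0.16 (TMM scaling, filterByExpr with a minimum count of 10, quasi-likelihood test, two-sided, Benjamini-Hochberg over all genes tested, threshold 0.05). CPM used TMM-scaled totals, and TPM used deposited counts, per-gene exon lengths and no scaling factor. Errors of levels are SDs over 3 libraries. The SE of a log2 fold change was derived from the test statistic. For counts at an unadjusted p under 0.05 no share over all genes is given. A bound against 0 counts used 3 counts over the group. Interval ratios are 95% exact. Only the edgeR fit was tested on simulated data, with changes set in genes of higher counts. The bounds, intervals and TPM shares were not tested in that way.

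The channel genes, the subfamilies and the lists of partners and markers were chosen with earlier results of these data known. Genes named by rule were those past the threshold, the 5 smallest p where fewer than 5 passed, the highest of each subfamily per group, and those at 0 in 1 group with at least 10 counts in each library of the other; further genes were chosen after their values were seen. A few named genes are not reported here. Alternatives were RLE factors, no scaling, no count filter, DESeq2 1.42.0, a replicate block and each library left out. The libraries of a group differed beyond sampling noise, with a chi-square per degree of freedom of 44.6 or more. The 6 single PVH files held the same counts as their columns in the joint table.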

Additional observations from a re-analysis of the deposited data

How the results depend on the processing

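The changes were run for 20 pairs of a named channel gene and a comparison, those past the threshold, at 0 after AAV-Cre or with the 5 smallest p, and for no other named gene. None reversed a direction there; 159 fits stayed on the same side of the threshold, 52 lost it and 8 gained it. With DESeq2, 14 of 89 channel genes tested were higher and 8 lower in TOM positive cells. Over all 17197 genes that it tested there, 2492 were higher and 2993 lower. After AAV-Cre it called 4 of 114 higher and 8 lower, beside 583 higher and 1300 lower of all 18922 genes. Without scaling factors 2 of 75 were lower in TOM positive cells, beside 1532 of all 15228 genes. Without the count filter 2 of 119 were higher and 3 lower after AAV-Cre, beside 160 higher and 552 lower of all 27166 genes. The labels do not say if the replicate numbers pair the libraries. Same-numbered libraries correlated at -0.07 to 0.02 in their deviations from group means. With the wide scatter among libraries, such values cannot exclude a pairing. With a replicate block 5 channel genes were higher and 3 lower in TOM positive cells, beside 899 higher and 1088 lower of all 15228 genes. After AAV-Cre the block left 0 higher and 0 lower, and 0 of all genes passed. With 1 library left out, TOM positive cells had 3 to 7 channel genes higher and 0 to 7 lower, with 4 higher and 0 lower without TOM negative 2 and 3 higher without TOM positive 3. Over all genes those fits gave 630 to 1482 higher and 881 to 2065 lower. After AAV-Cre 0 to 2 channel genes were higher and 0 to 2 lower, and none was called without any 1 AAV-GFP library. Over all genes 0 to 47 were higher and 0 to 253 lower there. RLE factors gave 7 channel genes higher and 6 lower in TOM positive cells, beside 1559 and 2086 of all genes. After AAV-Cre they gave 1 and 1, beside 107 and 298 of all genes. The cause of these shifts was not tested. The count filter left 45 channel genes of the hypothalamic and 12 of the PVH comparison without a test, and 3 libraries a group leave wide errors.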

Other observations

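The 2 experiments also differed in which channel genes they counted at all, without any test between them. Of the 120 channel genes 95 reached 10 counts in a TOM positive library, 89 in a TOM negative one, 106 in an AAV-Cre one and 115 in an AAV-GFP one. Kcnb2, Kcnj13, Kcnmb2, Kcnv1, Scn4b and Scn7a had no count in any of the 6 hypothalamic libraries. Kcnb2, the delayed rectifier Kv2.2, had 0, 85 and 0 counts in AAV-Cre libraries, against 33, 41 and 52 in AAV-GFP libraries. Kcnmb2, a BK subunit that inactivates the channel, had 107, 0 and 62 counts in AAV-Cre libraries, against 26, 4 and 35 in AAV-GFP libraries. Kcnj13, the Kir7.1 channel that melanocortin 4 receptors are known to act on, had no AAV-Cre count, against 25, 0 and 3 in AAV-GFP libraries. Its exons share 49.1% of their bases with the opposite-strand gene Gigyf2. In the other direction Scn4a, the skeletal muscle sodium channel, had 31 counts in TOM negative library 2 and none in the 11 other libraries.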
